A study of Mus musculus with 2 samples.

Results

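The 10 genes described here encode transcription factors of the mouse pluripotency network: Nanog, Sox2, Klf4, Klf2, Klf5, Esrrb, Tbx3, Tfcp2l1 (annotated under its older symbol, Tcfcp2l1), Zfp42 and Prdm14. They were chosen by name, with earlier results of these data known, from 22350 protein-coding genes on chromosomes 1 to 19 and X. None of the 10 lies on chromosome 17, which carries the bait, so they were compared with the 21259 protein-coding genes of the other chromosomes. Each gene was placed against the regions enriched for contact with an enhancer upstream of Pou5f1, the gene for Oct4, in embryonic stem (ES) cells of the E14 line. The cells were grown on gelatin in medium with serum and LIF and fixed with formaldehyde. Contacts were mapped by 4C-Seq with HindIII and DpnII, a method that amplifies and sequences the DNA ligated to 1 chosen site, the bait. There were 2 replicates, described by the study as biological, and no control or treated group. E14 is 1 established cell line, and other lines were not analysed here.

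Oct4 works together with Sox2, a partner with which it binds adjoining DNA motifs, and with Nanog, a homeodomain factor that holds ES cells in self-renewal. Around these act factors that keep the naive state of mouse ES cells. They include the zinc finger factors Klf2, Klf4 and Klf5, the orphan nuclear receptor Esrrb, the T-box factor Tbx3, Tfcp2l1, which responds to LIF signalling, Zfp42 (Rex1), a widely used marker of undifferentiated cells, and Prdm14, which represses differentiation signals and DNA methylation. In the nucleus, active genes on different chromosomes tend to lie in a shared compartment. The question put to these genes was whether an enhancer of one network gene was found near the others.

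Off chromosome 17, replicate 1 had 79 enriched regions covering 208 Mb and replicate 2 had 94 covering 244 Mb. The regions were windows from 1 common grid, with a median width of 2.62 Mb in replicate 1 (0.909 to 4.18 Mb) and 2.52 Mb in replicate 2 (0.203 to 4.18 Mb), and 34 windows were in both lists. Touching windows were counted separately. Joined, those of replicate 1 formed 65 runs, of which 30 overlapped a region of replicate 2. The libraries also differed in the number of junction tags, the reads that join the bait to a HindIII site. Replicate 1 was the deeper, and the part of depth in the differences between replicates was not tested. As the files carry no reads per region, regions cannot be ranked by strength. Pou5f1 itself (chr17:35642982-35647721, plus strand), beside the bait, lay inside a region in both replicates, which the position of the bait fixes and which is no check of the regions on other chromosomes. Its nearest listed site was 993 kb away. The study counted junctions less than 1 Mb from the bait apart, as proximal. Whether such sites could be listed is not stated, so this distance is no measure of contacts close to the bait.

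Klf2 was the single gene of the 10 whose start lay inside a region in both replicates. Sox2, Esrrb and Tbx3 lay inside a region of replicate 1 but of no region of replicate 2. Nanog, Klf4, Klf5, Tfcp2l1, Zfp42 and Prdm14 lay outside the regions of both replicates. Thus 4 of the 10 genes were inside regions of replicate 1, where the share of all protein-coding genes was 17.7%, and 1 of 10 was inside regions of replicate 2, where that share was 20.0%. The mean was 2.50 ± 2.12 genes (SD, n = 2), and that of the share of all genes 18.9% ± 1.62 (SD, n = 2). Inside regions of both replicates there was 1 gene of 10, against 10.0% of all genes, and inside a region of at least 1 replicate there were 4, against 27.7%. The count in both replicates was therefore at the share of all genes, and the count of replicate 1 did not recur in replicate 2. The share of genes in both replicates depended on gene density, as given below, and was lower where genes are sparse. Among all genes inside regions of replicate 1, 56.5% were also inside regions of replicate 2, and 1 of the 4 genes was. The share that recurred also varied with the number of other gene starts within 1 Mb. It was 17.8% in the sparsest quartile of genes, which holds Sox2 and Tbx3, and 31.2% in the next, which holds Esrrb. In the densest quartile, which holds Klf2, it was 69.7%. With 10 genes and 2 replicates, no test was made of these counts.

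**Figure D1:**
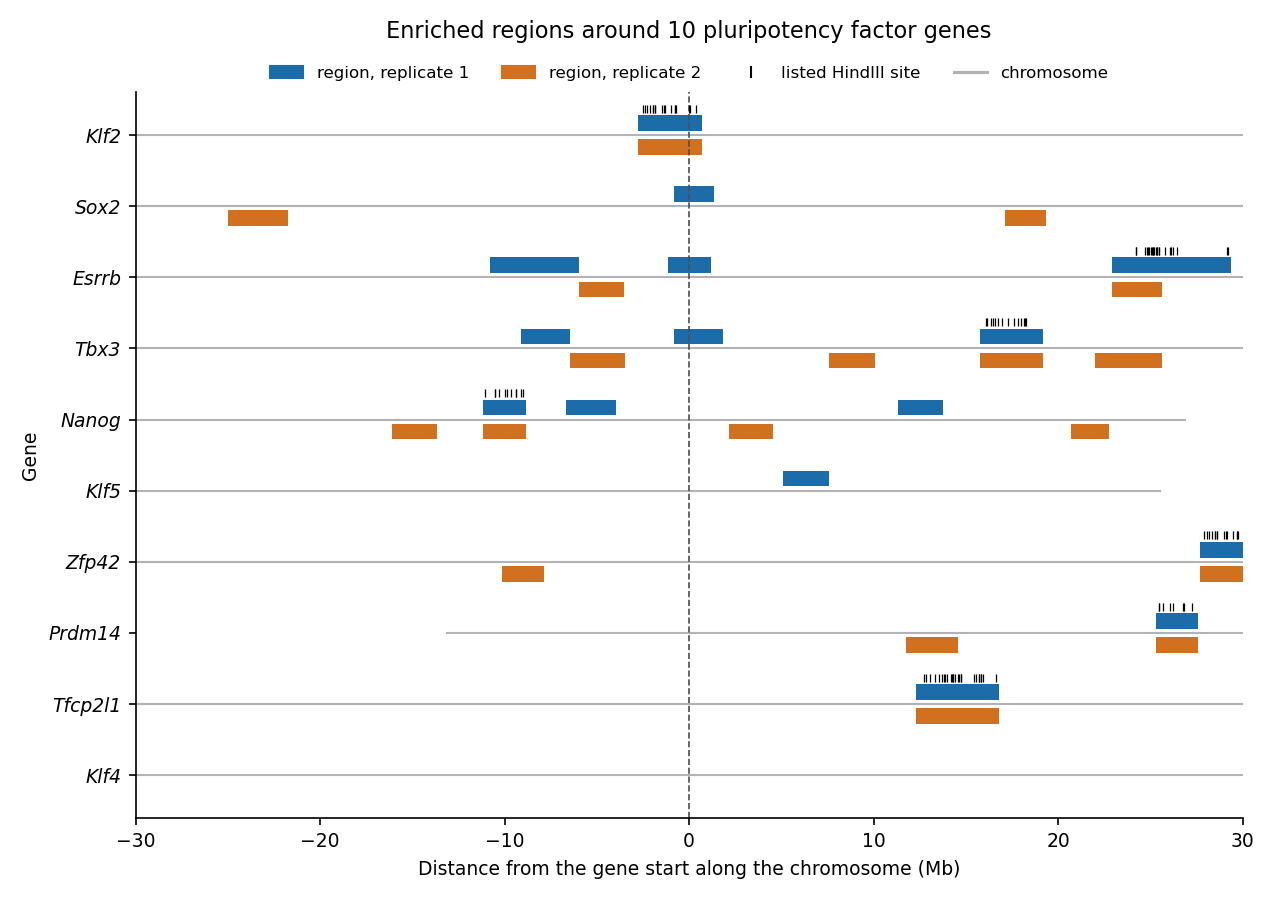
Enriched regions within 30 Mb of the start of each of the 10 genes (x axis, distance along the chromosome in Mb; y axis, gene), with bars for replicate 1 (blue) and replicate 2 (orange), ticks for the listed HindIII sites and a grey line for the chromosome. Bars of both colours cross the dashed line at the gene start for Klf2, a blue bar alone crosses it for Sox2, Esrrb and Tbx3, and no bar lies within 30 Mb of Klf4.

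Klf2 (ENSMUSG00000055148.7, chr8:74842932-74845555, mm9, plus strand) encodes a Krüppel-like factor of naive ES cells, endothelium and resting T cells. It lay in the window chr8:72078639-75532161, which had the same edges in both replicates. This window was 3.45 Mb wide, and the gene start was 2.76 Mb from its left edge and 0.689 Mb from its right edge. The starts of 125 protein-coding genes fell in it (36.2 per Mb), and it was the fourth densest in genes of the 34 windows of both replicates (median 22.6 per Mb, range 1.81 to 39.2). Its neighbours included Jund, Jak3, Rab8a, Med26, Eps15l1 and Sin3b. Chromosome 8 was rich in such genes, with 27.7% of its protein-coding genes inside regions of replicate 1, 25.2% inside regions of replicate 2 and 22.1% inside both.

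A further table listed the contacted HindIII sites, with the replicates not separated. Off chromosome 17 it held 590 sites, all of them in runs of touching windows of replicate 1 that met a region of replicate 2. Of these, 508 were in windows of both replicates and 82 in adjoining windows of replicate 1 only. Hence the table says nothing of genes outside these runs, and Klf2 was the single gene of the 10 with its start inside one. Klf2's window held 18 listed sites among 897 HindIII motifs (2.01%, exact 95% interval 1.19 to 3.15%, which covers counting error only). The median of the 34 windows was 1.93%, and the window ranked 15 from the highest, so it was not set apart by its share of listed sites. Within 100 kb of the Klf2 start, 2 of 53 motifs were listed, and within 500 kb 3 of 284 were. Klf2 was 1 of 10 genes with a listed site in the body or within 100 kb of it, against 8.54% of all protein-coding genes, but the other 9 lie outside the runs that the table covers. Among the 2412 protein-coding genes with the start inside these runs, 74.0% had a listed site in the body or within 100 kb. The nearest site to Klf2 was 35.1 kb from the gene, and 46.5% of the 2412 genes had one as close or closer (median 41.0 kb). The distance of Klf2 was thus near the middle for genes that the table covers.

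The 3 listed sites nearest to Klf2 are shown because they are the listed contacts closest to any of the 10 genes. Each line gives the mm9 plus strand, with 30 bases on both sides of the HindIII motif, which is in capitals. The site upstream of Klf2 lies between genes (chr8:74807815-74807880), that at 44.4 kb downstream in an intron of Eps15l1 (chr8:74887255-74887320), an endocytosis gene, and that at 346 kb downstream in an intron of Nwd1 (chr8:75189012-75189077).
Upstream site, 35.1 kb: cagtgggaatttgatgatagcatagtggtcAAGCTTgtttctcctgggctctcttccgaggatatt
Eps15l1 intron: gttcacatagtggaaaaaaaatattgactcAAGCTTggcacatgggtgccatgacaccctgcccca
Nwd1 intron: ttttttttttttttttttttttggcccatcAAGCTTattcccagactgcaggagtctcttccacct

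The upstream site differed from the others in its sequence. Its left flank of 30 bases occurs beside 14 HindIII motifs of the genome, and its right flank beside 1. The 17 other listed sites of the window had flanks found beside no other motif. A read from the left side of the upstream site could thus come from elsewhere, and which side was sequenced is not given in the files. The Eps15l1 site, at 44.4 kb, is the nearest site free of this limit. Of the 897 motifs in the window, 696 had flanks found beside no other motif. The shares of listed sites given above count all motifs, including those with repeated flanks. Between the upstream site and the Klf2 start lay 7 unlisted motifs, and between the start and the Eps15l1 site 12.

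No contact was listed at Klf2 itself. Its body holds 0 HindIII motifs, so a contact there could be seen only at the ends of the 4.38 kb HindIII fragment that contains the start. Neither end, at positions 74841563 and 74845938, was listed, and both had flanks found beside no other motif. The upstream end, 1.37 kb before the start, reads as follows (chr8:74841533-74841598).
Klf2, unlisted: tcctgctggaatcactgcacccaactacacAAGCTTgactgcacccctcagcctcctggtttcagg

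The rest of the listed sites in this window lay far from Klf2. Upstream, the next was 691 kb from the start, in a UTR of Unc13a, which leaves the largest gap between neighbouring sites, 656 kb, just upstream of the pair around Klf2 (median gap 107 kb). The farthest was 2528 kb upstream, in an intron of Zfp866 and 0.253 kb from the start of Atp13a1. In all, 12 of the 18 sites lay inside a protein-coding gene body, as did 488 of the 897 motifs. Within 10 kb of a protein-coding gene start lay 10 of the sites and 399 of the motifs.

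**Figure D2:**
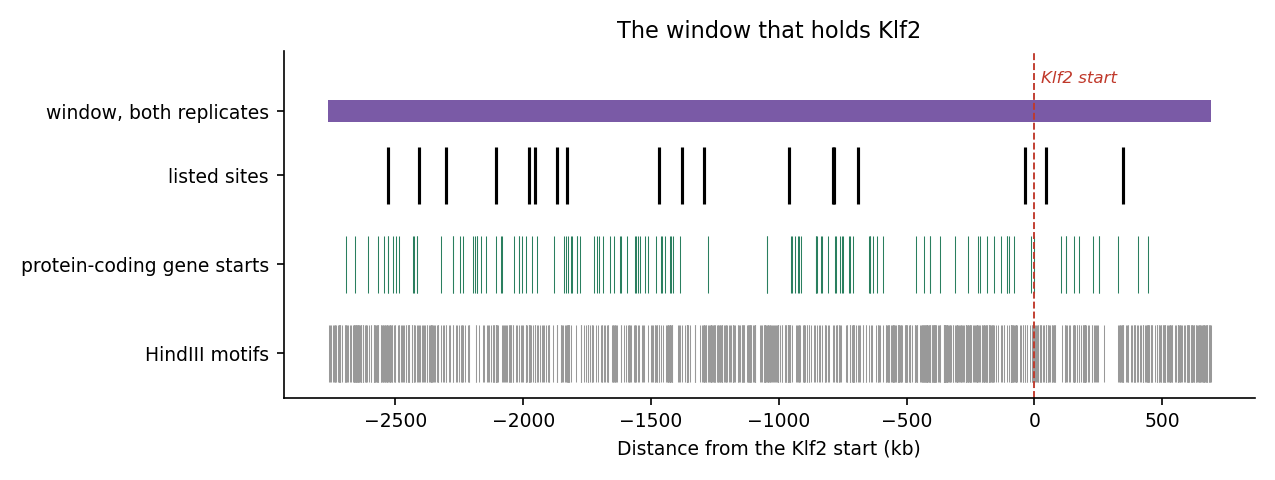
The window of both replicates that holds Klf2, with distance from the Klf2 start in kb on the x axis and rows for the window, its 18 listed HindIII sites, 125 protein-coding gene starts and 897 HindIII motifs. Listed sites 35.1 kb upstream and 44.4 kb downstream flank the gene, and the 656 kb to the left of the first are empty of sites.

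Sox2 (ENSMUSG00000074637.3, chr3:34548927-34551383, plus strand) is the HMG-box partner of Oct4. Its start lay in the replicate 1 window chr3:33728864-35902839, 2.17 Mb wide, at 0.820 Mb from the left edge and 1.35 Mb from the right. In replicate 2 the nearest region was 17.1 Mb away (chr3:51684585-53882696), a distance within which 82.4% of all genes had a region. The Sox2 window was gene-poor, with 7 protein-coding gene starts: Ccdc39, Fxr1, Dnajc19, Sox2, Atp11b, Dcun1d1 and Mccc1. At 3.22 per Mb it ranked 77 of the 79 windows of replicate 1, whose median was 15.0 per Mb. On chromosome 3, 9.18% of protein-coding genes were inside regions of replicate 1 and 24.2% inside regions of replicate 2.

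Esrrb (ENSMUSG00000021255.10, chr12:87702067-87862578, plus strand) lay in the replicate 1 window chr12:86581195-88898881. The window was 2.32 Mb wide and held 38 gene starts, among them Fos, Jdp2, Batf and Tgfb3. Its density of 16.4 per Mb was above that of 42 of the 79 windows. The nearest region of replicate 2 ended 3.54 Mb before the Esrrb start. Esrrb is the longest of the 10 genes, at 161 kb, with 44 HindIII motifs in its body.

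Tbx3 (ENSMUSG00000018604.11, chr5:120120678-120134733, plus strand) lay in the replicate 1 window chr5:119317975-121972090, 2.65 Mb wide with 34 gene starts, or 12.8 per Mb. Its start is the first in the window, 0.803 Mb from the left edge, and is followed by Tbx5, a T-box factor of heart and forelimb. The window also held 10 genes of the Oas family, known for interferon-induced antiviral enzymes, and Ptpn11, which encodes the phosphatase Shp2 of the LIF receptor pathway. In replicate 2 the nearest region was 3.49 Mb away.

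The windows of Sox2, Esrrb and Tbx3 met no region of replicate 2 and lie outside what the site table covers, so the absence of listed sites in them is no measurement. A ligation at one of these genes would be read next to a HindIII motif, and the following lines show where for each gene, giving the motif nearest the start whose flanks lie in no UTR. The Sox2 motif lies in the coding exon, 0.457 kb after the start (chr3:34549354-34549419). Those of Esrrb (chr12:87701038-87701103) and Tbx3 (chr5:120119435-120119500) lie 0.999 kb and 1.21 kb before the start.
Sox2: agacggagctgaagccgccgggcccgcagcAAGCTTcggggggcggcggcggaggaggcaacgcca
Esrrb: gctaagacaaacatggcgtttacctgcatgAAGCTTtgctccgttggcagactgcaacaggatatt
Tbx3: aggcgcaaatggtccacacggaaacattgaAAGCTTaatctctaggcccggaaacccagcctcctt

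All 3 motifs have flanks found beside no other motif. Across the 10 gene bodies there are 77 HindIII motifs, of which 74 have such flanks, and the starts lie on fragments of 1.13 (Esrrb) to 6.95 kb (Prdm14). Of the 20 fragment ends at the 10 starts, all had such flanks, although no alignment to the rest of the genome was made. None of the 77 motifs and 2 of the 20 ends, both of Klf2, lay in stretches covered by the site table.

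The remaining genes lay outside every region. Nanog (ENSMUSG00000012396.5, chr6:122657507-122664651, plus strand) was closest, at 3.95 Mb from a region of replicate 1 (chr6:115993509-118708991) and 2.13 Mb from a region of replicate 2 (chr6:124791759-127204099). These are different windows on opposite sides of the gene, with 1150 and 621 HindIII motifs in between. Of all genes, 40.3% lay as close to a region of replicate 1 and 35.7% to one of replicate 2.

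Klf5 (ENSMUSG00000005148.7, chr14:99697910-99712624, plus strand), a factor of ES cells and of gut epithelium, was 5.09 Mb from a region of replicate 1. In replicate 2 it was 31.7 Mb from the nearest region, farther than 94.1% of genes or as far. Zfp42 (ENSMUSG00000051176.5, chr8:44380422-44392363, minus strand) shares its chromosome with Klf2. Its nearest region in replicate 1 was the window of Klf2, 27.7 Mb away, and in replicate 2 another region at 7.87 Mb. Prdm14 (ENSMUSG00000042414.7, chr1:13103538-13117244, minus strand) was 25.3 Mb from a region of replicate 1 and 11.7 Mb from one of replicate 2.

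For Tfcp2l1 and Klf4 both replicates had the same nearest window. That of Tfcp2l1 (ENSMUSG00000026380.9, chr1:120524522-120581744, plus strand) was chr1:132832794-134914219, 12.3 Mb away. Klf4 (ENSMUSG00000003032.7, chr4:55540013-55545347, minus strand), one of the original reprogramming factors, was the farthest of the 10 at 71.7 Mb from chr4:127227614-129988616. Of all genes, 98.3% lay as close or closer to a region of replicate 1 and 98.5% to one of replicate 2. Klf4 was thus among the most remote genes from any region, and this held in both lists.

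The median distance of the 10 starts to the nearest region was 4.52 Mb in replicate 1 and 9.80 Mb in replicate 2 (7.16 ± 3.73 Mb, SD, n = 2). Over all protein-coding genes it was 7.07 and 5.03 Mb (6.05 ± 1.45 Mb, SD, n = 2). The median of the 10 genes was thus below that of all genes in replicate 1 and above it in replicate 2. In each replicate, single genes of the 10 lay on both sides of the all-gene median. These differences were not tested.

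**Figure D3:**
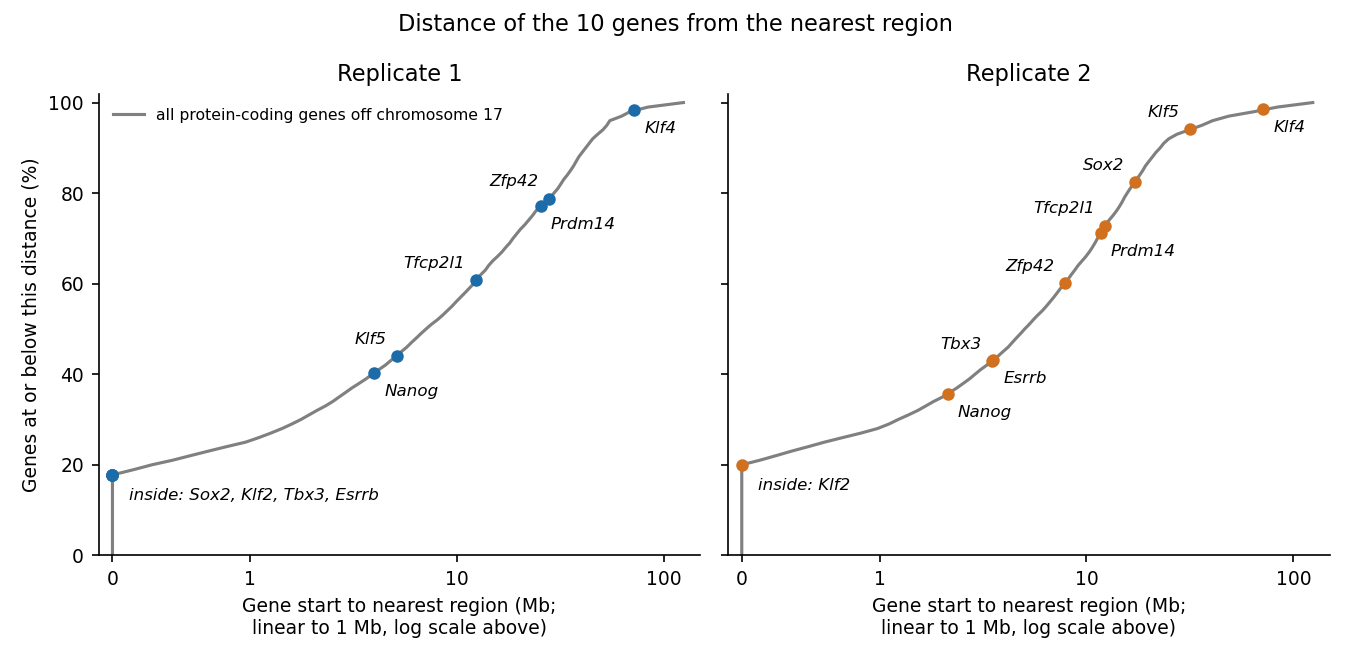
Distance from gene start to nearest region in Mb (x axis, linear to 1 Mb and logarithmic above) against the percent of protein-coding genes off chromosome 17 at or below it (grey curve, y axis), with the 10 genes as points in each replicate. In replicate 1, 4 points lie at 0 and the others between 3.95 and 71.7 Mb. In replicate 2, Klf2 alone lies at 0 and the others are between 2.13 and 71.7 Mb.

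The 10 genes differed in the density of genes around them. The share of genes inside regions rose with the number of neighbours, so this sets the background of each. Klf2 had 54 other protein-coding gene starts within 1 Mb and Nanog 31, against a median of 28 for all genes (quartiles 15 and 48). Esrrb had 26 and Tbx3 12. The other genes had 8 (Tfcp2l1), 7 (Zfp42), 6 (Prdm14), 5 (Klf5), 4 (Sox2) and 2 (Klf4). Only 0.767% of all genes had fewer neighbours than Klf4, and 2.16% fewer than Sox2. Thus 7 of the 10 genes fell in the sparsest quartile, with 15 or fewer other starts.

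In that quartile, 4.35% of 5540 genes were inside regions of replicate 1, 6.25% inside regions of replicate 2 and 0.776% inside both. Of the 7 pluripotency factor genes in it, 2 (Sox2 and Tbx3) were inside regions of replicate 1, none inside regions of replicate 2 and none inside both. In the densest quartile, which holds Klf2, 33.0% of 5208 genes were inside regions of replicate 1, 39.2% inside regions of replicate 2 and 23.0% inside both. Nanog fell in the third quartile, where 35.0% of genes were inside a region of at least 1 replicate, and it was in none. Esrrb fell in the quartile with 16 to 28 neighbours, where 10.2% of genes were inside regions of replicate 1. Among the 10 genes, the spacing of HindIII motifs varied less than the number of neighbours. The stretch of 500 motifs centred on the start measured 1.40 to 2.05 Mb for the 10 genes (median 1.61 Mb). For all genes the median was 1.63 Mb, with a wider range of 0.667 to 8.71 Mb.

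**Figure D4:**
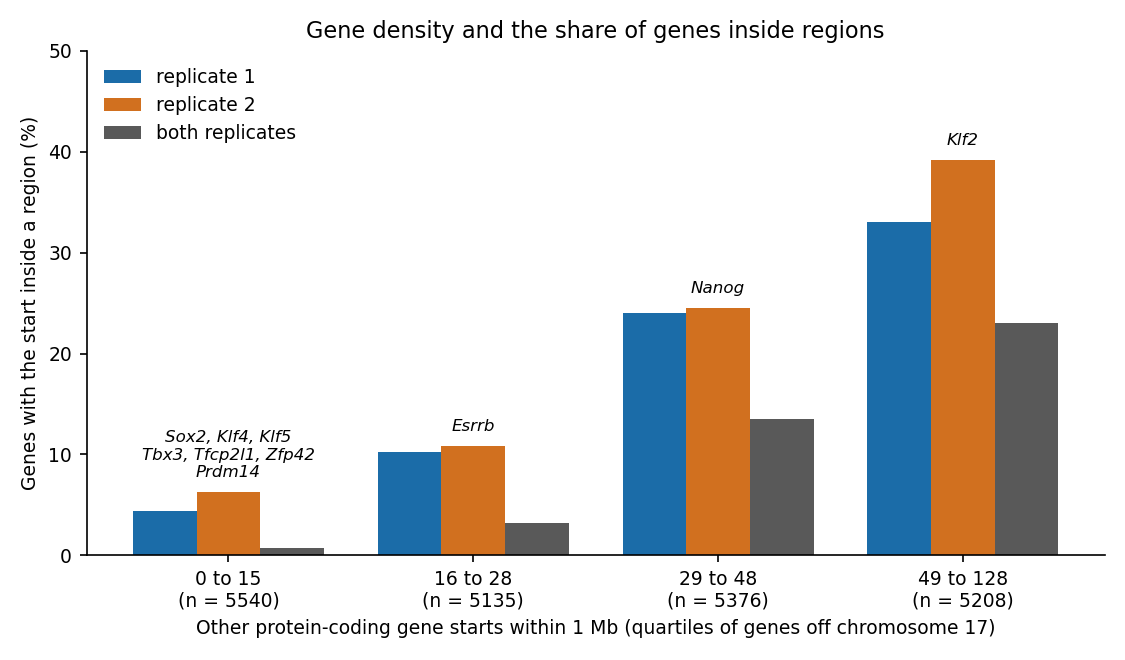
Percent of protein-coding genes off chromosome 17 with the start inside a region (y axis) of replicate 1 (blue), replicate 2 (orange) or both (grey), by quartile of the number of other gene starts within 1 Mb (x axis, n genes in brackets). The names above the bars place the 10 genes, 7 of them in the quartile where 4.35% and 6.25% of genes were inside regions.

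Other genes of the network were then placed in the same way. Of 32 further pluripotency genes, 5 were inside regions of replicate 1 (15.6%), 2 inside regions of replicate 2 (6.25%) and 1 inside both (3.12%). Among all genes the shares were 17.7%, 20.0% and 10.0%. These genes had a median of 16 other starts within 1 Mb, against 28 for all genes. The gene in both was Dnmt3l (chr10:77504692-77526367), which encodes a cofactor of DNA methyltransferases. Sall4, Tdgf1, Tet2 and Lefty1 were inside regions of replicate 1 only, and Lin28a inside a region of replicate 2 only, 0.555 Mb from one of replicate 1. Dppa3 and Gdf3 lie beside Nanog on chromosome 6 and shared its place outside the regions, so they add no independent case.

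Dnmt3l was the single gene of these lists in both replicates to hold a listed site in its body, as did 13.7% of the 2412 genes that the site table covers. The site lies in an intron, 12.9 kb from the start (chr10:77517540-77517605), and is shown because no other gene named in the lists held one.
Dnmt3l intron: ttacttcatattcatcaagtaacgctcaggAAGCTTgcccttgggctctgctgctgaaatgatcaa

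Of 17 genes of the LIF and BMP pathways, the signals that sustain mouse ES cells in serum with LIF, 4 were inside regions of each replicate (23.5%) and 2 inside both (11.8%), within 1 gene of the shares of all genes (17.7%, 20.0% and 10.0%). The pair was Lif (chr11:4157560-4172517), the cytokine itself, with a listed site at 70.2 kb, and Smad5 (chr13:56804371-56843738), a mediator of BMP signals, with a site at 74.1 kb. Socs3, the feedback inhibitor of LIF signalling, was inside a region of replicate 1 only, in a run of windows that met replicate 2, and had a listed site 2.71 kb from its body. Stat3, the main effector of LIF, lay 0.632 and 1.93 Mb from the nearest regions, and the receptor gene Lifr 70.1 and 67.1 Mb. Stat3 and Smad1 belong to both of these lists.

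Of 14 other Klf genes, 2 were inside regions of each replicate (14.3%) and 1 inside both (7.14%), shares within 1 gene of those of all genes. The gene in both was Klf16 (chr10:80029874-80040041), whose window touches that of Dnmt3l and which has 119 other gene starts within 1 Mb and a listed site at 48.6 kb. Klf14 was inside a region of replicate 1 only and Klf8 inside a region of replicate 2 only. Klf1, which shares chromosome 8 with Klf2, was 11.9 Mb from a region in both replicates.

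Regulators of differentiation, which are mostly silent or low in ES cells, were placed for contrast. Of 25 off chromosome 17, 3 were inside regions of replicate 1, 2 inside regions of replicate 2 and 1 inside both, where the shares of all genes were 17.7%, 20.0% and 10.0%. The gene in both was Neurog1 (chr13:56351866-56353524), a neuronal determinant, in the same window as Smad5 and with a listed site at 47.6 kb. Mixl1 and Pax7 were inside regions of replicate 1 only and Mesp1 inside a region of replicate 2 only. T and Nkx2-5 lie on chromosome 17, outside the regions of both replicates, and Sox1 was not matched in the annotation. In both replicates, the counts of these lists were small, and their order was not tested.

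**Figure D5:**
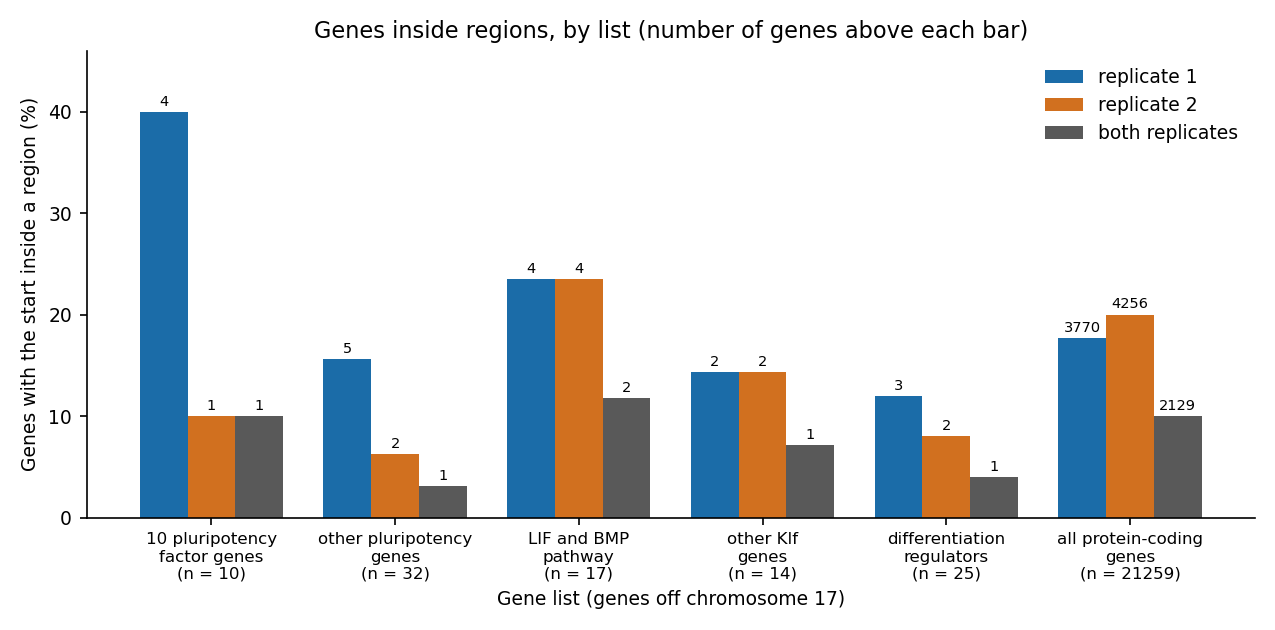
Percent of genes with the start inside a region (y axis) of replicate 1 (blue), replicate 2 (orange) or both (grey) for the 10 genes, 4 further lists and all protein-coding genes off chromosome 17 (x axis, n in brackets), with the number of genes above each bar. The bars of the 10 genes stand at 40.0%, 10.0% and 10.0%, those of all genes at 17.7%, 20.0% and 10.0%.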

How the data were processed

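Enzyme-based 4C-Seq was carried out by the authors on 2 replicates of E14 ES cells. Reads starting with the bait primer were mapped to mm9 with BWA (version not given in the sources used here) and matched to HindIII sites. Off chromosome 17, the study describes scoring contacts per 500 HindIII sites. The 4 windows that hold any of the 10 genes contain 659 to 897 motifs of the reference. The reason for these larger numbers is not given in the sources used here. Windows passing a permutation-based false discovery rate were deposited as positions, separately for each replicate. The deposited site table lists positions of HindIII sites and does not separate the replicates. The minimum number of reads per site is not given in the sources used here. No file used here holds counts. The depth of each library is stated by the study, with more junction tags in replicate 1, but the depth behind a region or site is unknown.

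Positions were counted from 1 and compared with GENCODE M1 on NCBIM37, the assembly of mm9. All 1806 listed sites start at a HindIII motif of this reference. A gene was inside a region when its start was, and near a listed site when its body lay within 100 kb of it. Genes were matched by symbol. Flanks of 30 bases were compared over all HindIII motifs of chromosomes 1 to 19 and X, on both sides. Exact (Clopper-Pearson) intervals were computed with SciPy 1.17.1, and Python 3.11.15 and pandas 2.3.3 were used. The interval functions were tested on simulated data. No test was made over the 10 genes, since genes are not replicates. The genes and lists were chosen with earlier results of these data known. Named from the other lists are genes inside regions of both replicates, and others chosen after their values were seen. Alternatives were the gene body with or without flanks, joined regions, other distances, other background genes and each replicate alone.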

Additional observations from a re-analysis of the deposited data

How the results depend on the processing

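The counts of 4 genes inside regions of replicate 1, 1 inside regions of replicate 2 and 1 inside both were the same for any base of the gene body, for bodies with 100 or 500 kb on each side and with regions less than 1 Mb apart joined. Of 32 alternative values for the 10 genes, 25 were called unchanged. The bound was 1.5 times for a count and the SD between replicates for a distance to a region. For the distance to a listed site, where replicates are not separated, it was the SD over the 10 genes. The values that moved came from leaving out a replicate or from a stricter distance. With 1 replicate left out, the counts for replicate 1, replicate 2 and at least 1 replicate ranged from 1 to 4 and the median distance to a region from 4.52 to 9.80 Mb, which are the values of each replicate alone. The count in both cannot be had from 1 replicate. The count of genes near a listed site, 1 within 100 kb, was 0 in the gene body only and 0 within 10 kb, and 1 within 500 kb and within 1 Mb. The shares of genes inside regions were lower in other background sets. Among the 16964 genes with 2 to 54 other starts within 1 Mb, as the 10 genes had, 13.7% were inside regions of replicate 1, 15.1% inside regions of replicate 2 and 6.47% inside both. On the chromosomes of the 10 genes these shares were 16.0%, 17.8% and 9.28%, and among 35676 genes of all types 16.2%, 17.4% and 8.42%. No paired analysis was possible because the design has 1 group. Without read counts, a region that just missed the authors' threshold cannot be told from one without contacts, and windows of 2.17 to 3.45 Mb, as those with the 10 genes in them, do not resolve single genes.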
